A study of Mus musculus with 2 samples.

Results

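The regions described here were places in the mouse genome where wild-type H2A.Z was called enriched over a long stretch and the K3R3 mutant was not called in its looser list. They were chosen from region lists of a chromatin immunoprecipitation and sequencing (ChIP-seq) experiment by 4 conditions. A region had to be in the stricter wild-type list, be at least 1000 bp wide, lie on an autosome other than 6 and 8, and overlap no region of the looser K3R3 list by as much as 1 bp. The rule found 410 regions among 9232 wild-type regions of that width on these 17 autosomes, and among 80686 wild-type regions of any width there. Of the 410, 272 also overlapped no region of the stricter K3R3 list.

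The histone variant H2A.Z replaces H2A in a minority of nucleosomes, mainly beside the start sites of genes and at enhancers. The variant is deposited by remodelling complexes of the SWR1 family. Lysines in its C-terminal tail can carry a single ubiquitin, a mark known from silenced or poised genes such as Polycomb targets in embryonic stem cells. A wide enriched region usually spans several nucleosomes, as on either side of an active or poised start site.

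Both groups were mouse embryonic stem cells, labelled as strain V6.5 (129SvJaexC57BL/6) and, in the protocol, as transgenic KH2 lines made by lentiviral infection. One group carried H2A.Z fused to YFP and the other H2A.Z.K3R3 fused to YFP, in which 3 C-terminal lysines are arginines. In both, a CMV promoter under doxycycline control drove the fusion, cells with YFP were selected by sorting, and hairpins lowered the endogenous H2A.Z transcript, so each held a tagged transgenic histone on a background of lowered endogenous protein. The listed antibody, Abcam Ab290, is raised against GFP and also binds YFP, so the lists show the tagged protein.

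There was 1 library per group. Every difference below is one between 2 libraries that no replicate could check, and p-values are not used. Intervals are 95% Wilson intervals for counting error alone, with each region taken as independent. Each library had a looser list (threshold 1e-09) and a stricter list (1e-12), which gave the position of each region and no height, so read depth is unknown and a region outside a list may still be enriched below its threshold. On the 17 autosomes the stricter lists held 80686 wild-type and 97115 K3R3 regions. No marker of the labelled cell type could be checked in lists of regions. Coordinates are 1-based in mm9. No gene, exon or promoter is named, because no annotation or sequence of that build was used here.

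Wide wild-type regions were rarely without K3R3. Without a looser K3R3 region were 15.4% of the stricter wild-type regions of all widths (12459 regions), and 4.44% of those of at least 1000 bp. The corresponding percentages without a K3R3 region of either list were 12.3% and 2.95%. These percentages come from the comparison that chose the regions and only place them. The share was 20.9% under 400 bp, 9.62% from 400 to under 800 bp and 7.26% from 800 to under 1000 bp. It was 5.59% (4.91 to 6.36) from 1000 to under 1250 bp, 3.22% (2.54 to 4.08) from 1500 to under 2000 bp and 2.24% (1.48 to 3.37) from 2000 to under 3000 bp. Of the 185 wild-type regions of at least 3000 bp, 4 were wild-type-only. Since 1 bp of overlap makes a region shared, a wider region meets a K3R3 region more easily. Part of the fall with width is therefore built in.

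The looser K3R3 list covered most wide wild-type regions almost wholly, few in part, and 410 not at all. The looser K3R3 list covered 4629 of the 9232 wide wild-type regions over their whole length and another 2760 over more than 90%. Numbers then dropped step by step, to 69 regions covered over more than 40% and up to 50%, 15 over more than 10% and up to 20%, and 5 over more than 0 and up to 10%. At zero coverage the number was 410. Regions just touched by the looser K3R3 list were therefore far fewer than regions outside it.

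**Figure D1:**
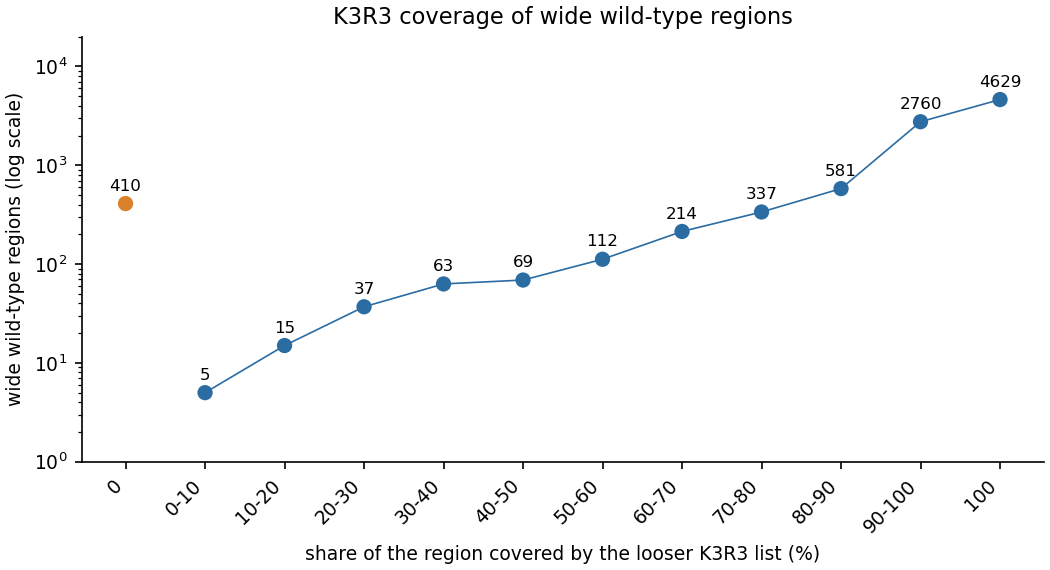
Number of wide wild-type regions (log axis) by the share of their length that the looser K3R3 list covered, from 0 (orange, the 410 regions described) to 100% (4629 regions), on the 17 autosomes. The count is lowest, at 5, in the class next to zero.

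The cut-offs of the rule ran through similar regions. There were 36 wild-type-only regions among the 499 of exactly 1000 bp and 36 among the 497 of 975 bp, just under the limit. Closest inside the overlap limit was a region of 1025 bp at chr3:138405476-138406500, with a looser K3R3 region 100 bp away. Just outside it was one of 1000 bp at chr10:79599476-79600475, of which a looser K3R3 region covered 25 bp (2.50%).

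The regions were narrow for their class, which the overlap rule builds in in part, since it spares wider regions less often. Their median width was 1225 bp (quartiles 1075 and 1469 bp, widest 3100 bp), against 1325 bp (1125 and 1650 bp, widest 7650 bp) for the 8822 wide wild-type regions that the looser K3R3 list shared. The 272 regions in neither K3R3 list had a median of 1200 bp and reached 3075 bp. The 138 regions present in the stricter K3R3 list had a median of 1250 bp and reached 3100 bp.

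The 4 lists together split the regions into 4 patterns. The first, of 244 regions, was found in both wild-type lists and in neither K3R3 list. The second, of 128, was found in both wild-type lists and in the stricter K3R3 list. The third, of 28, was in the stricter wild-type list alone, and the fourth, of 10, was in both stricter lists and no looser list. In the looser wild-type list the region is often a little longer, so it can reach a K3R3 region that its stricter form does not. This was so for 6 of the 244, and 238 regions had no K3R3 region over them in any form.

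Absence from a looser list was also seen in the wild type. Of the 410 regions, 38 (9.27%, 6.83 to 12.5) overlapped no region of the looser wild-type list, although that list has the more permissive threshold. Among the wide wild-type regions shared with K3R3 this held for 44 of 8822 (0.499%, 0.372 to 0.669). The gap between these shares was present within width classes. From 1000 to under 1250 bp they were 11.6% (8.0 to 16.6) and 0.716% (0.489 to 1.05), and from 1500 bp upwards 6.52% (3.02 to 13.5) and 0.128% (0.0498 to 0.329). Places missing from the looser K3R3 list were thus more often missing from the looser wild-type list too, in every width class examined, as counts of regions from 1 library each.

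The largest regions without any K3R3 region were long blocks with close wild-type bounds in both lists. On chromosome 4 the region at chr4:151634851-151637925 was 3075 bp wide with the same bounds in the looser wild-type list. The nearest K3R3 region, of 400 bp, began 5950 bp after it, and before it none lay within 18300 bp. A second wild-type region of 600 bp lay only 325 bp behind the block and had no K3R3 counterpart, but it was also absent from the looser wild-type list. The region at chr17:29905201-29908275, again 3075 bp in both wild-type lists, lay between a K3R3 region of 1175 bp that ended 2375 bp before it and one of 225 bp that began 4550 bp after it. Here K3R3 was called on both sides and not over the block itself.

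Blocks on chromosomes 14, 15 and 19 also had K3R3 close by. At chr15:76283776-76286525 the wild-type region was 2750 bp (2850 bp in the looser list), with K3R3 regions of 575 bp at 900 bp before and 975 bp at 1275 bp after it. At chr14:32474576-32477225 it was 2650 bp. The next wild-type region after that block, 925 bp wide and 2750 bp away, was matched by a K3R3 region of 950 bp at 2725 bp. At chr19:4057351-4059750 it was 2400 bp, with a K3R3 region of 1250 bp ending 875 bp before it. The next wild-type region after it, 575 bp wide at a distance of 7575 bp, had a K3R3 match of 675 bp at 7475 bp. On chromosomes 14 and 19 the calls of both libraries thus nearly coincided next to a block where they differed.

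On the other chromosomes the widest region in neither K3R3 list ranged from 1200 bp on chromosome 3 to 2275 bp on chromosome 9. The latter, chr9:44313726-44316000, was alike in both wild-type lists, and its nearest K3R3 region was a call of 100 bp at a distance of 1125 bp. The region at chr11:119932401-119934650 was 2250 bp wide, with a stricter K3R3 region 4975 bp away but none of the looser list within 13050 bp. The region at chr2:91103701-91105875 was 2175 bp wide and grew to 2925 bp in the looser list, where it took in a neighbour of 500 bp that lay 225 bp before it. These blocks differed mainly in how close K3R3 came.

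Several of them stood far from any K3R3 call. The region at chr18:36277176-36279175 was 2000 bp wide, with the nearest K3R3 region, of 100 bp, 16250 bp away. The regions at chr1:168067576-168069125 (1550 bp), chr5:143647101-143648850 (1750 bp) and chr10:79520026-79521525 (1500 bp) had no K3R3 region within 15650, 12850 and 9450 bp. None of these distances reached the farthest ones described further on, which belonged to narrower regions.

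The remaining ones had K3R3 closer by. The region at chr12:114034726-114036700 (1975 bp) had a K3R3 region of 825 bp at 425 bp, and the one at chr16:91884551-91886175 (1625 bp) had one of 1275 bp at 525 bp. The region at chr13:55310676-55312600 (1925 bp) had a K3R3 region of 300 bp at 1225 bp, and the one at chr7:52597676-52599450 (1775 bp) had a stricter one at 2150 bp. The region at chr3:107498776-107499975 (1200 bp) had a looser K3R3 region of 125 bp only 125 bp after it, while the nearest stricter one was 6650 bp away. All 17 regions in this group were also in the looser wild-type list.

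**Figure D2:**
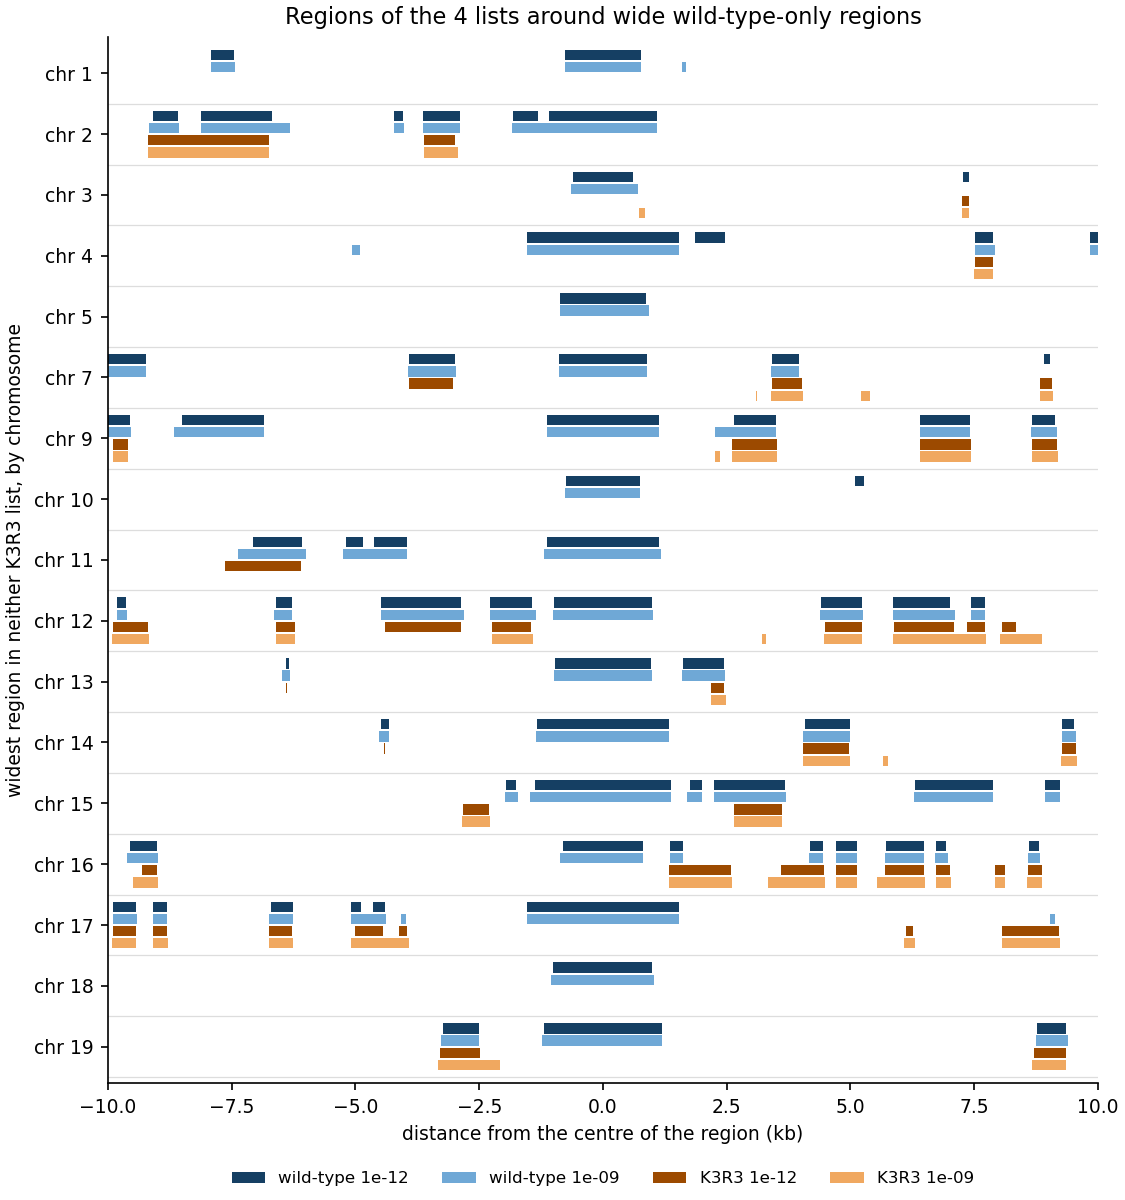
Regions of the 4 lists within 10 kb of the centre of the widest region in neither K3R3 list, on each of the 17 autosomes, with the wild-type lists in blue and the K3R3 lists in orange to brown. The central blue block has no K3R3 call over it in any row, and on chromosomes 12 and 16 most calls around it are present in both libraries.

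Distances to K3R3 covered more than 2 orders of magnitude. For the 272 regions in neither list the nearest K3R3 region of either list was a median of 2375 bp away (quartiles 819 and 5419 bp, range 100 to 39475 bp). A K3R3 region lay within 1000 bp of 85 of them (31.3%, 26.0 to 37.0), and 31 (11.4%, 8.15 to 15.7) had none within 10 kb. Width and distance were nearly unrelated across the 272 regions, with a Spearman rho of -0.050. They share 2 libraries and are not replicates. Wide blocks were thus found both next to K3R3 calls and far from them.

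**Figure D3:**
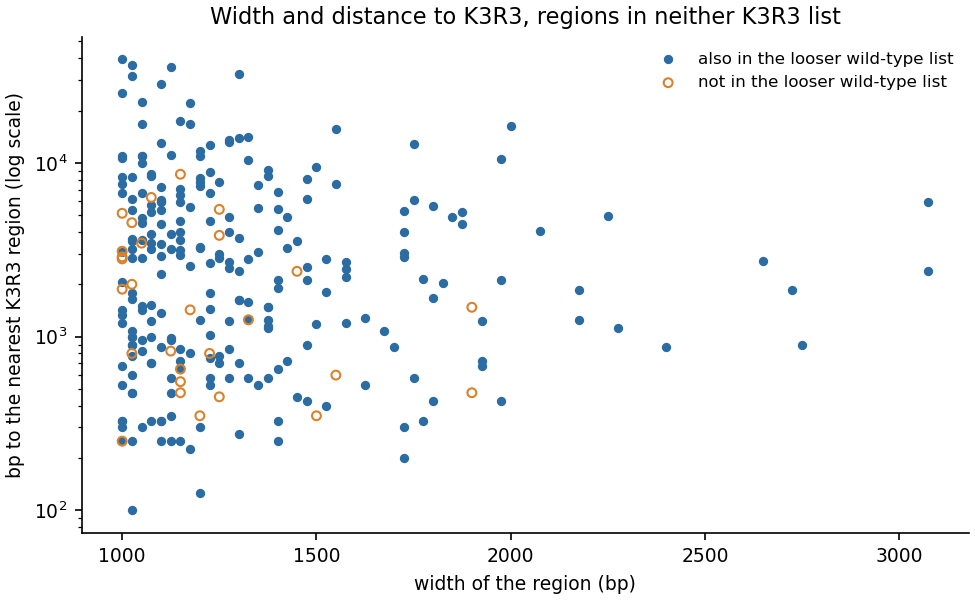
Width (bp) of each of the 272 regions in neither K3R3 list against its distance to the nearest K3R3 region of either list (bp, log axis). Filled points are the 244 regions also in the looser wild-type list and open circles the 28 that were not. Distances run from 100 to 39475 bp, and the open circles are all under 2000 bp wide.

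The 6 regions farthest from K3R3 were all 1300 bp wide or narrower. The farthest, chr16:84834776-84835775, was 1000 bp wide (1050 bp in the looser list), and the nearest K3R3 region began 39475 bp after it. The next wild-type region on that side, 39500 bp away, was 525 bp wide, and so was that K3R3 region. Apart from the block itself, both libraries therefore showed the same next call.

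Others of the 6 also had a matching next call on 1 side. At chr11:33412976-33414100 (1125 bp) the stretch before the region was free of calls over 308225 bp in the stricter lists of both libraries. At chr1:153275101-153276200 (1100 bp) the next earlier call in both stricter lists was the same region of 1300 bp, 82650 bp away. At chr14:62267226-62268250 (1025 bp) the next stricter calls after it were 31500 bp away in K3R3 and 31525 bp in the wild type. At chr17:46339301-46340325 (1025 bp) they were 44325 bp away in both libraries. The region at chr18:44539351-44540650 (1300 bp) had K3R3 no closer than 32400 bp, but another wild-type call of 50 bp at 4725 bp. On the opposite sides the calls often did not match. The region on chromosome 11 had a wild-type call at 16400 bp after it and K3R3 only at 35625 bp, and that on chromosome 1 had K3R3 after it at 28625 bp and the wild type at 71575 bp.

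The stricter K3R3 list lay over 138 of the 410 regions (33.7%, 29.3 to 38.4). At all widths, 2562 of the 12459 wild-type-only regions (20.6%, 19.9 to 21.3) were covered in this way. Of all 8945 wide wild-type regions under a stricter K3R3 region, 1.54% (1.31 to 1.82) had no looser one. In these 138 places K3R3 had passed the stricter threshold, and they cannot be read as places without the mutant.

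The K3R3 calls there had no minimum width, whereas the wild-type regions were chosen to be wide. The stricter K3R3 list covered a median of 58.6% of the region (quartiles 34.3% and 90.2%, range 6.25% to 100%), at least 50% in 79 regions and all of it in 14. The calls numbered 148, had a median width of 688 bp and were wider than the wild-type region in 20 cases. None of the 148 touched a looser K3R3 region. Their median log2 ratio of K3R3 to wild-type width was -0.87 (quartiles -1.77 and -0.27), and their midpoints lay a median of 269 bp from that of the region. With the libraries exchanged, as described further on, 135 K3R3 regions had a stricter wild-type call over them, covering a median of 55.0% of their length.

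The first 5 regions of full coverage in chromosome order serve as examples. At chr1:121039776-121041050 the wild-type region of 1275 bp lay inside a stricter K3R3 region of 1400 bp (121039676 to 121041075), while no looser K3R3 region came within 6300 bp. At chr5:140177426-140179025 a region of 1600 bp lay inside a stricter K3R3 region of 2225 bp, with none of the looser list within 6150 bp. A K3R3 region that covers all of a wild-type region is at least as wide, so the larger K3R3 widths here are built in by the choice of examples.

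The other examples were on chromosomes 5 and 9. At chr5:124295126-124296300 (1175 bp) and chr5:125395351-125396600 (1250 bp) the stricter K3R3 regions were 1275 and 1375 bp wide. The region at chr9:108385676-108386825 (1150 bp) lay under one of 1425 bp that ended at the same base. All 5 were also in the looser wild-type list, so for them only the looser K3R3 list stood apart.

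Wild-type-only blocks were found mostly in stretches rich in H2A.Z regions. The 410 regions had a median of 113.5 other stricter wild-type regions within 500 kb, against 95 for the shared wide regions. When the 9232 wide regions were split into 4 classes of nearly equal size by this number, 1.47% (1.06 to 2.05) were wild-type-only in the sparsest class (at most 54 neighbours). The shares were 4.60% (3.83 to 5.53), 6.25% (5.33 to 7.32) and 5.47% (4.61 to 6.47) in the next 3 classes. For the regions in neither K3R3 list the 4 shares were 1.04%, 3.07%, 4.15% and 3.54%. The sparsest class thus held the smallest share by either definition, and the densest class did not hold the largest.

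The extremes by K3R3 calls within 100 kb show how different the settings were. The region at chr15:78608276-78610350 (2075 bp) had 64 looser K3R3 regions and 60 other stricter wild-type regions within 100 kb, yet no K3R3 region within 4050 bp. The regions at chr4:148097151-148098850 (1700 bp) and chr17:30015901-30017625 (1725 bp) had 62 K3R3 regions each. At the other end, chr9:123387901-123389000 (1100 bp) had 2 K3R3 and 2 other wild-type regions within 100 kb. A looser K3R3 region and a stricter wild-type region, each 500 bp wide, lay 250 bp before it, so the pair of neighbours was shared and the block was not.

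The next places went to chromosomes 9 and 2. The region at chr9:70389976-70391175 (1200 bp) had 3 K3R3 regions within 100 kb, the nearest 10975 bp away. The region at chr2:126968351-126969475 (1125 bp), the first of 4 regions tied at 4 K3R3 regions, had a stricter K3R3 region over 44.4% of its length. Both were again in both wild-type lists.

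By chromosome the share of wide wild-type regions without a looser K3R3 region ran from 2.38% on chromosome 13 (7 of 294, 1.16 to 4.83) to 6.96% on chromosome 19 (24 of 345, 4.72 to 10.1). The most regions in number were on chromosome 11 (46 of 978), followed by chromosomes 2 and 4 with 45 each. Most intervals overlapped. Chromosomes 1 (2.80%, 1.73 to 4.50) and 10 (2.73%, 1.60 to 4.62) stayed under the lower bound of chromosome 19, which is the extreme of 17. Across the 17 chromosomes the share had a Spearman rho of 0.757 with the number of stricter wild-type regions per Mb. The chromosomes share both libraries, and the rho is a description.

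**Figure D4:**
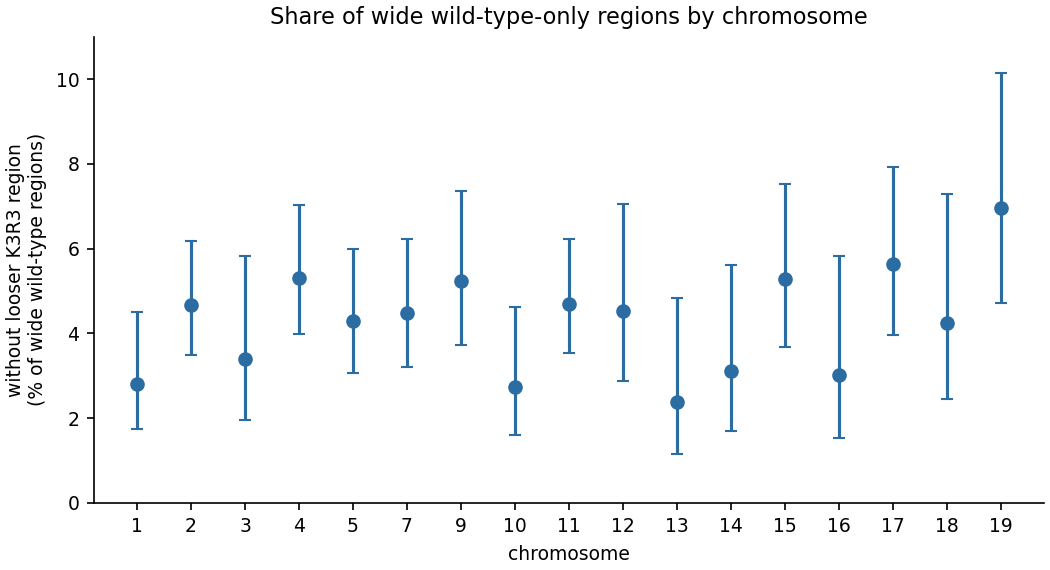
Share of wide wild-type regions without a looser K3R3 region (%) on each of the 17 autosomes, with 95% Wilson intervals as bars. Chromosome 19 is highest at 6.96% and chromosome 13 lowest at 2.38%.

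Narrower wild-type regions beside the 410 lacked a looser K3R3 region more often than those beside shared wide regions, and the gap narrowed with distance. Only neighbours under 1000 bp were counted, since a wider one without a looser K3R3 region would itself be among the 410. Within 1000 bp of the regions in neither K3R3 list, 32 of 90 such neighbours (35.6%, 26.4 to 45.8) lacked one, against 564 of 3280 (17.2%, 15.9 to 18.5) beside shared wide regions. From 1000 to 5000 bp the shares were 32.3% (27.0 to 38.2) and 18.3% (17.4 to 19.1), and from 100000 to 500000 bp 19.7% and 17.3%. Around the 138 regions in the stricter K3R3 list the share within 1000 bp was 36.4% (24.9 to 49.6). The rule bars a K3R3 region from reaching over both one of the 410 and its neighbour, which it does not bar beside shared regions, so part of the gap at short distances is built in.

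**Figure D5:**
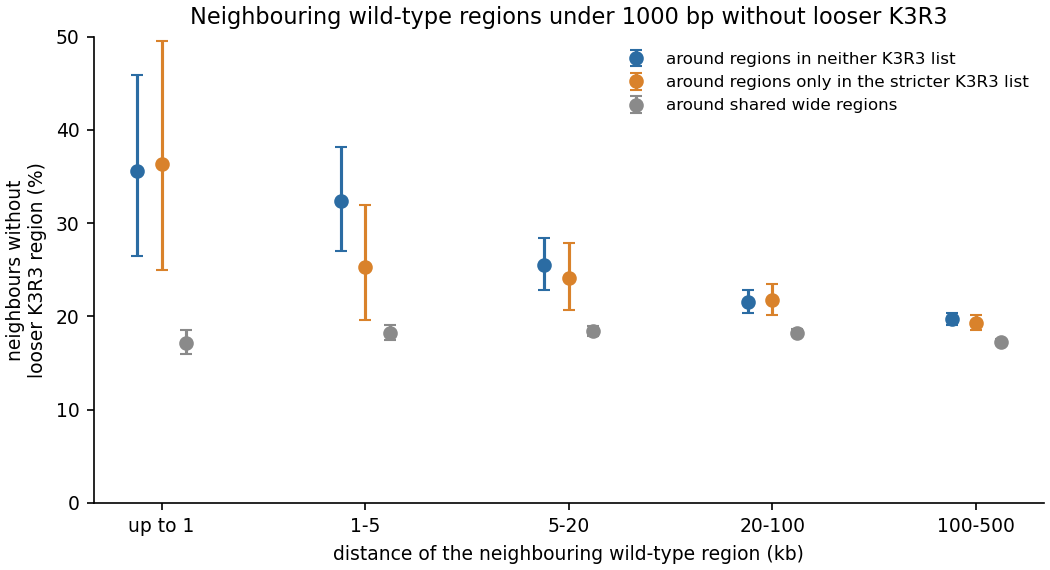
Share of neighbouring stricter wild-type regions under 1000 bp without a looser K3R3 region (%), by distance from the region (kb), around the 272 regions in neither K3R3 list, the 138 in the stricter K3R3 list and the shared wide regions, with 95% Wilson intervals. Within 1 kb the shares are 35.6%, 36.4% and 17.2%, and they approach each other with distance.

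Many of the blocks nevertheless had shared neighbours on both sides. For 230 of the 410 regions (56.1%, 51.3 to 60.8) the nearest stricter wild-type region on either side was also in the looser K3R3 list, for 152 only that on 1 side was, and for 28 (6.83%, 4.77 to 9.69) neither was. For shared wide regions both flanking regions were shared in 70.1% (69.1 to 71.0) and neither in 3.16% (2.82 to 3.55). At least 1 flanking region without a looser K3R3 region was found for 180 of the 410 (43.9%, 39.2 to 48.7), against 29.9% (29.0 to 30.9) of shared wide regions. Part of this gap is built in, because the rule bars a looser K3R3 region from reaching over both a block and its flank. A flank, as defined here, could also itself be among the 410.

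Width at shared places also differed by a small amount. Where a single looser region of each library overlapped, wild-type width over K3R3 width had a mean log2 ratio of -0.15 (SD 0.68, 65930 places) on the 17 autosomes, that is, K3R3 was slightly wider. Within 20000 bp of the regions in neither K3R3 list, the regions themselves left out, it was -0.015 (SD 0.66, 1093 places), and around shared wide regions -0.12 (SD 0.66, 23464 places). Around the regions under a stricter K3R3 call the mean was much the same as around those in neither list, at -0.017 (SD 0.68, 709 places). These means were not split by density class. A looser K3R3 region near the 410 cannot reach into them, which is not barred beside shared regions. Part of the width gap may therefore be built in. The SDs over places were far larger than these differences, and places near each other are not independent. The number of looser K3R3 regions per stricter wild-type region within 500 kb was also slightly lower around the 410 regions than around shared ones in each density class, with medians of 1.29 and 1.33 in the sparsest and 1.01 and 1.05 in the densest. Part of that gap is built in, because each of the 410 adds a wild-type and no K3R3 region.

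Some of the regions lay close together. Among the 410, 16 neighbouring pairs lay within 10 kb of each other and 58 within 100 kb. Pairs of shared wide regions were not counted, so whether the 410 were more or less grouped than those was not tested. Among the 272 in neither list the numbers were 5 and 27. The closest pair of the latter was 4925 bp apart on chromosome 15, the block of 2750 bp described above and one of 1575 bp at chr15:76291451-76293025. Between them lay, among others, a wild-type region of 1425 bp that K3R3 shared with a call of 975 bp.

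The next pairs were on chromosomes 9 and 11. On chromosome 9 the block of 2275 bp followed one of 1675 bp (chr9:44306351-44308025) after 5700 bp without a stricter wild-type call. No looser K3R3 region lay between a call of 300 bp before the pair and the call of 100 bp after it. On chromosome 11 regions of 1075 bp (chr11:115866001-115867075) and 1000 bp (chr11:115873626-115874625) were 6550 bp apart, the second absent from the looser wild-type list.

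At the looser threshold the wild-type blocks gained little. Of the 372 regions with a looser wild-type form, 299 (80.4%, 76.0 to 84.1) were wider there and 73 had the same width, and the median gain was 25 bp. Shared wide regions gained width in 77.2% (76.3 to 78.1), also with a median of 25 bp. Among the regions in neither K3R3 list, the largest gains were 2150, 1000 and 950 bp. At chr11:5963476-5964575 the region of 1100 bp became 3250 bp by joining a region of 1825 bp that lay 275 bp after it. The joined form overlapped a K3R3 region of 1700 bp, so only its first part was wild-type-only. At chr15:73536851-73538575 the width went from 1725 to 2725 bp where the nearest stricter wild-type neighbour lay 2200 bp away and the nearest K3R3 region 2875 bp away. At chr3:138405476-138406500, the region with K3R3 at 100 bp, it went from 1025 to 1975 bp.

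The same rule was applied with the libraries exchanged. K3R3-only regions numbered 455 of 9053 wide K3R3 regions (5.03%), against 410 of 9232 (4.44%) for the wild type, with 320 (3.53%) and 272 (2.95%) in neither list of the other library. At all widths the K3R3 share was the larger, with 27.7% against 15.4%, so the imbalance between the libraries was much smaller among wide regions. Among regions of at least 1500 bp the wild type had the higher count but nearly the same share. There it had 92 of 3216 (2.86%), against 82 of 3037 (2.70%) for K3R3. With chromosomes 6 and 8 included, the wild-type count rose from 410 to 586 (5.30% of 11061). The K3R3 count rose only from 455 to 461 (4.51% of 10211), so the higher wild-type count came from those chromosomes. After joining regions within 1000 bp, K3R3 had 862 of 17066 (5.05%) against 493 of 15112 (3.26%). The K3R3-only regions had a median width of 1175 bp, and 40 (8.79%, 6.52 to 11.8) were absent from their own looser list, against 0.861% (0.686 to 1.08) of shared wide K3R3 regions. A stricter wild-type region lay over 135 of the 455.

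The shares of the sets were nearly unrelated across chromosomes, while both sets had their smallest share in the sparsest density class. By chromosome the shares of wild-type-only and K3R3-only wide regions had a Spearman rho of -0.010 across 17 chromosomes. Chromosome 19 had the highest wild-type-only share and a K3R3-only share of 3.02% (10 of 331), while chromosome 12 had 4.53% wild-type-only and 8.94% K3R3-only (38 of 425). In the sparsest density class, set by each library's own regions, 4.07% (3.34 to 4.96) of wide K3R3 regions were K3R3-only, against 1.47% (1.06 to 2.05) wild-type-only among wide wild-type regions. From the next class to the densest the K3R3-only share was 4.55%, 5.09% and 6.41%. The K3R3-only regions had a median of 124 other stricter K3R3 regions within 500 kb, against 112 for shared wide K3R3 regions. Lying in region-rich stretches was thus not particular to the wild-type-only set. With 1 library per group these differences were not tested.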

How the data were processed

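Lists of enriched regions from 2 libraries, 1 per group, were analysed. For each library the authors deposited a list at threshold 1e-09 and another at 1e-12, per the file headers, with coordinates only, in steps of 25 bp, and no height or score. The submitters' processing notes name Bowtie 0.12.3, bedtools and the build mm9. The region caller, with its filters and control, is not given in the sources used here. Depth and precision per library cannot be read from such lists.

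Overlaps, covered lengths and distances (bases between regions) were computed with Python 3.11.15 (pandas 2.3.3, numpy 2.4.6, scipy 1.17.1), and figures with matplotlib 3.10.9. They equalled those of bedtools 2.31.1 on 80686 regions, and on simulated data all 200 removed wide regions were found. Density classes are quartiles of the number of other stricter regions within 500 kb. Regions are named by a rule: the widest in neither K3R3 list on each autosome used, the 6 farthest from K3R3, the 5 most covered by the stricter K3R3 list (ties by chromosome and start), the 3 with most and with fewest K3R3 regions within 100 kb (ties likewise), the 3 closest pairs and, among regions in neither K3R3 list, the 3 largest gains in the looser list. The regions at the limits of the rule were named after their values were seen. The rule for the regions and the alternatives were chosen with earlier results of these data known. Regions were not assigned to genes, since the available gene table has GRCm38 coordinates, which were not mixed with mm9.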

Additional observations from a re-analysis of the deposited data

How the results depend on the processing

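No paired analysis was possible because there was 1 library per group. The count of wide wild-type-only regions (410) and of those in neither K3R3 list (272) followed the minimum width, with 764 and 522 at 800 bp and 92 and 55 at 1500 bp, and the mirrored K3R3-only count (455) with 876 and 82, so the order of the libraries turned at 1500 bp, as it did on all autosomes (586 wild-type-only and 461 K3R3-only). Calling a region shared only when 50% was covered gave 507 in neither list and 692 K3R3-only. Counting K3R3 within 1000 bp as shared gave 293 K3R3-only. Joining regions within 1000 bp gave 862 K3R3-only (5.05%), against 493 wild-type-only (3.26%). The cause of these shifts was not tested beyond the changed definition. The share with a K3R3 region of either list overlapping or within 1000 bp was 54.4%, with 138 of the 410 under a stricter K3R3 call. It was 34.8% when membership was set against the stricter K3R3 list and 68.6% with 50% coverage. With looser K3R3 within 1000 bp counted as shared it was 33.7%, and after joining 42.6%. These settings change which regions are members, so the shifts are partly built in. The share found in the looser wild-type list (90.7%) was 93.5% from 1500 bp. With the looser wild-type list as the start, where that share is complete by construction, 474 regions were wild-type-only, and against the stricter K3R3 list 287. Requiring the region in its own looser list, an alternative chosen after seeing the data, left 372, of which 244 were in neither K3R3 list. Unknown read depth limits which places count as missing.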
